A study of Oryza sativa with 6 samples.

Results

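The root transcriptome of wild-type (WT) rice under low nitrogen (N) is described here from the 2 WT libraries of the series, taken by their labels, out of 6 libraries in all. The 2 lines OE15 and OE20 overexpress *OsMYB305*, a gene for an R2R3-MYB transcription factor, and have 2 libraries each. All 6 libraries come from roots of 14-day-old seedlings of the cultivar ZH11 supplied with 0.288 mM NH4NO3. The labels name MS as the culture solution, whereas the methods of the study give that of Yoshida for hydroponic culture.

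OE15 and OE20 are independent transgenic lines that carry the *OsMYB305* coding sequence behind the CaMV 35S promoter, which is active in most tissues, and the WT carries no transgene. Nothing in the labels or methods says how many seedlings made up a library, or whether libraries of 1 genotype came from separate cultures. Any p-value therefore measures only the spread between these libraries, which may be technical. No WT roots at a higher N supply are in the series, so the levels below are those of the low-N root and not a response to low N.

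Roots take up nitrate through high-affinity transporters of the NRT2 family, which work with the partner protein NAR2 at the plasma membrane. Nitrate is reduced to nitrite and then, by nitrite reductase in plastids, to ammonium, which the glutamine synthetase and glutamate synthase cycle builds into amino acids. Xylem vessels and other cells with a secondary wall in turn lay down cellulose, made by a complex of cellulose synthase (CESA) proteins, and lignin, made from monolignols that laccases and peroxidases oxidise in the wall.

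Expression was given as FPKM, the fragments assigned to a locus divided by transcript length and by the fragments of the library. Levels can therefore be compared between loci. A comparison between libraries also assumes that the most expressed loci take a similar share of each library. Each WT library had a value for 55982 loci under MSU names. FPKM keeps no read totals and the depth is unknown. The steps between the lowest values put WT replicate 2 at 1.35 times the depth of WT replicate 1, and the 4 OE libraries at 0.982 to 1.08 times. The FPKM of a library summed to 711525 in WT replicate 1 and 717425 in WT replicate 2.

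Gene names and functions come from the tables of the study, which annotate 466 of the 55982 loci (0.832%). Of these, 462 are loci that the study listed as changed in the OE lines on these same libraries. A family or list below therefore holds the annotated copies only, and not the whole family. Of the annotated loci, 92.5% had a WT mean of 1 FPKM or more, against 36.8% of all loci. A count of listed loci at 1 FPKM or more is thus high by that choice. Loci without an annotation are given by name alone.

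A small number of loci dominated the WT root. WT replicate 1 had 20492 loci at 1 FPKM or more, 10339 at 10 or more, 1231 at 100 or more and 54 at 1000 or more. WT replicate 2 had 20644, 10454, 1241 and 55 loci at the same limits. The 10 most expressed loci held 6.70% of the summed FPKM in WT replicate 1 and 6.86% in WT replicate 2, and the 100 most expressed held 22.05% in WT replicate 1 and 21.98% in WT replicate 2. It took 876 loci in WT replicate 1 and 890 loci in WT replicate 2 to reach 50% of the sum. At the other end, 47.5% and 46.4% of the loci were listed at 0, which in FPKM files can be a failed estimate as well as an absent transcript.

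The most expressed locus was LOC_Os01g15270 on chromosome 1, at 13030 FPKM in WT replicate 1 and 13872 FPKM in WT replicate 2. It was 2.005-fold above the next locus in each library. The next locus, LOC_Os07g25050, encodes a thionin-like peptide, of a class of small cysteine-rich proteins known for antimicrobial activity, and was at 6497 and 6919 FPKM. These 2 loci stood clear of all others, since the third, LOC_Os03g12510, was at 4633 and 4756 FPKM.

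Whether neighbours in this order differed was judged against the replicate error. For loci at 1000 FPKM or more, 95% of loci differed between the WT libraries by less than 1.11-fold. The gap to the next locus was larger than this, in the same direction in both WT libraries, for the first 3 loci only. From the fourth locus, LOC_Os02g41630 at 3899 and 4056 FPKM, down to the tenth, LOC_Os03g05290 at 2890 and 2907 FPKM, neighbours were not separated beyond the replicate error. Between them lay LOC_Os03g17870 at 3569 and 3481 FPKM, LOC_Os01g67860 at 3496 and 3470 FPKM, LOC_Os11g47809 at 3302 and 3556 FPKM, LOC_Os02g38920 at 3208 and 3093 FPKM, and LOC_Os03g46770 at 3120 and 3126 FPKM. The order of these loci changed between the WT libraries, and LOC_Os11g47809 was in place 7 in WT replicate 1 and place 5 in WT replicate 2.

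**Figure D1:**
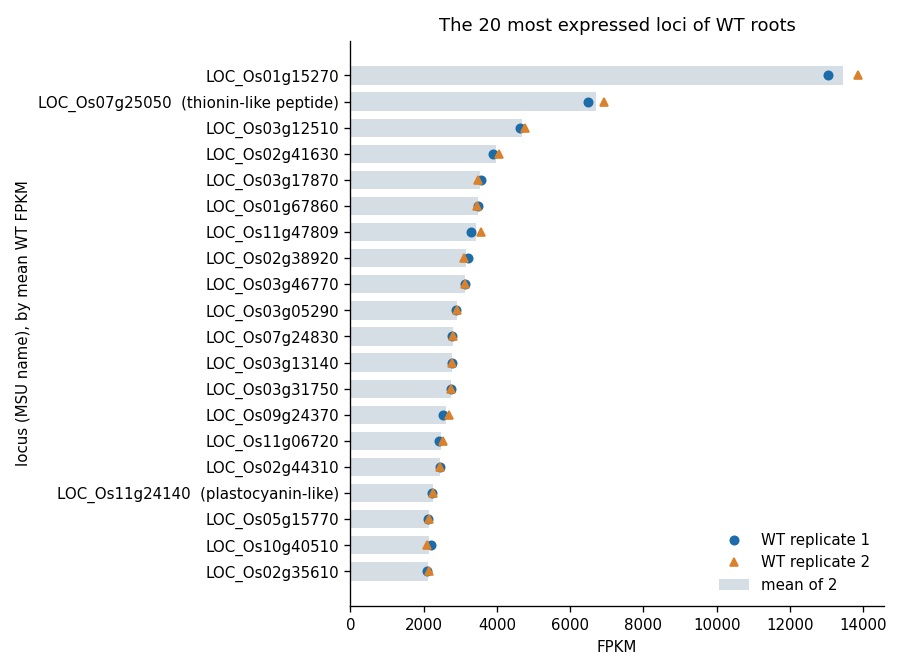
FPKM of the 20 most expressed loci in WT roots (horizontal axis, FPKM from 0) against the locus name, with the mean of the 2 libraries as a bar and each library as a point. LOC_Os01g15270 (13030 and 13872 FPKM) and the thionin-like LOC_Os07g25050 (6497 and 6919 FPKM) stand apart, and from the fourth locus on the steps between neighbouring loci are small.

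Among the 100 most expressed WT loci, 7 were annotated, and 3 of them were thionin or defence genes. Besides LOC_Os07g25050 in place 2, they were a plastocyanin-like protein (LOC_Os11g24140, place 17, 2234 and 2259 FPKM), an SCP-like extracellular protein (LOC_Os10g11500, place 30, 1591 and 1669 FPKM) and a cysteine-rich receptor-like protein kinase (LOC_Os04g56430, place 42, 1262 and 1310 FPKM). Plastocyanin-like domains bind copper and are found in cell-surface proteins of many tissues. The SCP-like proteins form the family of the pathogenesis-related protein PR-1. The other three were the thionin THION3 (LOC_Os06g31890, place 53, 1027 and 1007 FPKM), a pathogenesis-related protein of the Bet v I family (LOC_Os03g18850, place 56, 950 and 961 FPKM) and *OsNIR2* (place 65).

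Summed FPKM was spread unevenly over the chromosomes, in the same way in both WT libraries. Chromosome 3 held 9.95% of the loci and 15.9% of the summed FPKM in each library, and 49.3% of its loci reached 1 FPKM. Chromosome 12 held 7.17% of the loci and 4.33% and 4.39% of the summed FPKM, and 28.2% of its loci reached 1 FPKM. Chromosome 11 had the lowest share of loci at 1 FPKM, 26.0%, but 10 of the 100 most expressed loci, against 15 on chromosome 3. None of the 185 loci outside the 12 chromosomes reached 1 FPKM.

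Expressed loci were next to each other in the order of the locus names more often than their share of all placed loci. Of the loci at 1 FPKM or more, 55.6% were followed by another such locus, whereas 36.9% of all placed loci reached that level. At 100 FPKM or more the values were 5.83% and 2.21%. There were 65 runs of 2 or more neighbouring loci at 100 FPKM or more, and the longest had 4 loci, LOC_Os10g40700 to LOC_Os10g40730 on chromosome 10, with summed FPKM of 563 and 581. One locus of this run, LOC_Os10g40720, is annotated as an expansin. How reads shared by near-identical or overlapping loci were assigned is not given in the sources used here, so the split between neighbouring copies is uncertain.

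The 8 loci annotated for N uptake or assimilation spanned a range of 5.94 to 855 FPKM in WT mean. Among these 8, nitrite reductase was at the top and the NRT2 transporters at the bottom. The list holds no nitrate reductase or glutamine synthetase gene, so this is no ranking of the whole pathway. *OsNIR2* (LOC_Os01g25484, chromosome 1), which encodes nitrite reductase, was at 791 FPKM in WT replicate 1 and 918 FPKM in WT replicate 2 (mean 855 ± 89.6, SD, n = 2). It was in place 65 of all loci, and 0.311% of the 20590 loci with a WT mean of 1 FPKM or more were higher. Its fold between the WT libraries, 1.16, was larger than the 1.12-fold that bounds 95% of loci at 100 to 1000 FPKM.

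*OsNAR2.1* (LOC_Os02g38230, chromosome 2), the partner protein of the high-affinity nitrate transporters, was at 86.1 and 91.4 FPKM, in place 1407. *OsNRT2.2* (LOC_Os02g02190) was at 8.29 and 8.95 FPKM, and *OsNRT2.1* (LOC_Os02g02170) was at 5.81 and 6.07 FPKM, in places 11276 and 13361. The partner was thus far above both transporters. *OsNAR2.1* exceeded *OsNRT2.2* by 10.4-fold in WT replicate 1 and by 10.2-fold in WT replicate 2, and *OsNRT2.1* by 14.8-fold and 15.1-fold.

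*OsNRT2.2* exceeded *OsNRT2.1* by 1.43-fold and 1.47-fold, which did not pass the 1.503-fold of the replicate error for loci at 1 to 10 FPKM. The same order was seen in the 4 OE libraries, at 1.36-fold to 1.46-fold. The 2 genes are close copies near each other on chromosome 2, so their separate levels depend on how shared reads were split. The same holds for the share of *OsNRT2.2* in the sum of both, 58.8% and 59.6% in the WT libraries.

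Of the other loci annotated for N uptake or assimilation, a chloroplast-type glutamate synthase (LOC_Os05g48200), which transfers the amide nitrogen of glutamine to form glutamate, was at 66.8 and 71.0 FPKM. An early nodulin 93 gene (LOC_Os06g05000), of a class first described in legume nodules, was at 66.2 and 68.2 FPKM. These 2 were level with each other and below *OsNAR2.1*. A urea active transporter (LOC_Os10g42960) was at 15.5 and 16.4 FPKM, and an amino acid transporter (LOC_Os12g08130) was at 9.74 and 10.4 FPKM. The 8 loci of this list had a median of 41.6 FPKM, whereas the median of all loci at 1 FPKM or more was 10.2 FPKM. A list drawn from named or changed genes lies high by its choice, so the gap is a description of these 8 loci.

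The annotated membrane transporters were lower than the N list. Of 20 loci, 3 of which are also in the N list, 18 reached 1 FPKM, 8 reached 10 FPKM and none reached 100 FPKM, with a median of 8.07 FPKM. After *OsNAR2.1*, the highest was a nodulin MtN3 family protein (LOC_Os01g42110) at 56.8 and 49.8 FPKM, of a family that includes sugar transporters. A metal cation transporter (LOC_Os01g74110) was at 45.5 and 49.3 FPKM. The MtN3 gene was the higher of the 2 in both WT libraries, but the values were close in WT replicate 2.

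An aluminum-activated malate transporter (LOC_Os04g47930), of a family known in wheat for malate release from root tips, was at 19.8 and 22.2 FPKM. A multidrug resistance-associated protein (LOC_Os04g49890) was at 16.3 and 16.9 FPKM. The lowest was an ABC transporter family protein (LOC_Os02g18670) at 0.596 and 0.741 FPKM. Loci below 1 FPKM differed by up to 3.71-fold between the WT libraries for 95% of loci, so this level is known only to that extent.

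The annotated genes for cellulose and other wall polysaccharides spanned a range of 0.916 to 171 FPKM in WT mean. The 13 annotated loci had a median of 30.3 FPKM, and 12 reached 1 FPKM. The highest was *OsGH9A3* (LOC_Os03g52630), an endoglucanase of the GH9 family, at 172 and 170 FPKM in place 680. The expansin LOC_Os10g40720, of a class that loosens walls, was at 131 and 135 FPKM.

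The 3 secondary wall cellulose synthases were at almost the same level. *OsCESA7* (LOC_Os10g32980) was at 72.2 and 78.1 FPKM, *OsCESA9* (LOC_Os09g25490) at 67.8 and 74.7 FPKM, and *OsCESA4* (LOC_Os01g54620) at 67.9 and 69.5 FPKM. None of the gaps between them passed the 1.17-fold of the replicate error for loci at 10 to 100 FPKM, and *OsCESA9* was 0.999 times *OsCESA4* in WT replicate 1 and 1.08 times in WT replicate 2. The 3 proteins are known to act in 1 complex, and the 3 genes lie on 3 chromosomes. In the 4 OE libraries, *OsCESA9* was below *OsCESA4*, at 0.878 to 0.935 times its level.

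*OsBC1* (LOC_Os03g30250), a COBRA-like protein involved in cellulose assembly, was at 30.1 and 30.5 FPKM, below *OsCESA4* by 2.26-fold and 2.28-fold. A glycosyl transferase 8 domain protein (LOC_Os03g20120) was at 68.1 and 66.3 FPKM, the level of the cellulose synthases. The cellulose synthase-like genes were lower. *OsCSLF8* (LOC_Os07g36630), of the family that makes mixed-linkage glucan, was at 4.78 and 4.21 FPKM, and *OsCSLE6* (LOC_Os09g30130) was at 2.76 and 2.72 FPKM. *OsCESA9* exceeded *OsCSLF8* by 14.2-fold and 17.7-fold. A xylosyltransferase (LOC_Os01g10440) was the lowest of the list, at 0.833 and 0.9999 FPKM.

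Among the 19 loci for monolignol synthesis and coupling, all reached 1 FPKM and the highest were genes for coupling. The top 2 were dirigent genes of chromosome 10, whose proteins guide the coupling of monolignol radicals. LOC_Os10g18820 was at 375 and 351 FPKM and LOC_Os10g18760 at 286 and 271 FPKM. Peroxidases followed, from LOC_Os05g04500 at 84.1 and 87.8 FPKM, LOC_Os05g06970 at 81.0 and 81.7 FPKM and LOC_Os01g73170 at 63.9 and 62.7 FPKM to LOC_Os01g73200 at 2.85 and 3.46 FPKM.

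The monolignol synthesis genes lay lower in the same list. *OsCCoAOMT* (LOC_Os08g38910), a caffeoyl-CoA O-methyltransferase that methylates the ring of the precursor, was at 31.5 and 31.8 FPKM, in place 4187. *OsCCR1* (LOC_Os01g18110), the cinnamoyl-CoA reductase of the first step specific to monolignols, was at 8.26 and 9.08 FPKM. *OsCCoAOMT* exceeded *OsCCR1* by 3.81-fold and 3.50-fold. A cytochrome P450 84A1 gene (LOC_Os06g24180), the class of ferulate 5-hydroxylase in Arabidopsis, was at 6.10 and 6.16 FPKM.

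Laccases, which oxidise monolignols in the wall, were at a similar low level. LOC_Os01g63200 was at 12.1 and 14.1 FPKM, *OsLAC10* (LOC_Os03g16610) at 8.60 and 9.48 FPKM, and *OsLAC14* (LOC_Os07g01110) at 6.66 and 7.85 FPKM. The order was the same in both WT libraries, but neither gap passed the 1.503-fold of the replicate error.

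**Figure D2:**
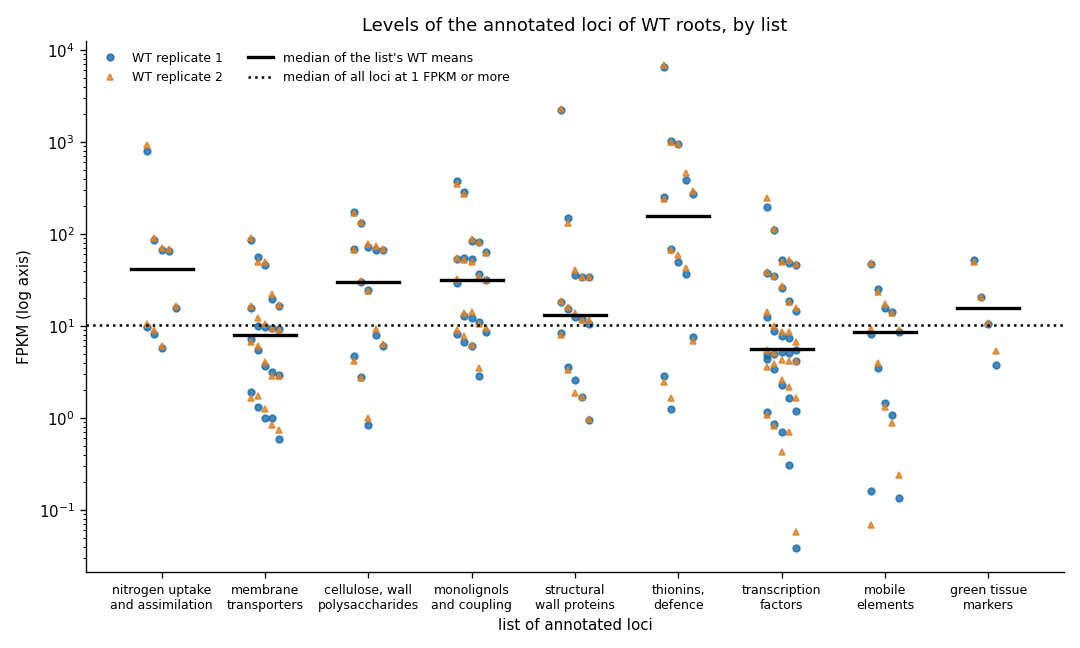
FPKM of every annotated locus in 9 lists (vertical axis, log scale), with each WT library as a point, the median of the list's WT means as a bar, and the median of all loci at 1 FPKM or more (10.2 FPKM) as a dotted line. Thionin and defence genes have the highest median and reach 6497 and 6919 FPKM, *OsNIR2* stands alone above its list, and the lowest pair of points is *OsMYB305* among the transcription factors. The list of membrane transporters shares 3 loci with the N list.

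The list of structural and surface wall proteins was led by a single locus. The plastocyanin-like LOC_Os11g24140 at 2234 and 2259 FPKM was followed by a glycine-rich cell wall structural protein (LOC_Os10g31710) at 151 and 131 FPKM and a fasciclin domain protein (LOC_Os01g06580), of a class of cell-surface adhesion proteins, at 35.8 and 40.4 FPKM. The lowest of the 15 loci was a BURP domain protein (LOC_Os10g26940) at 0.943 and 0.987 FPKM. The median of the list was 13.3 FPKM.

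Thionins and other defence proteins formed the most expressed list, with 12 loci, a median of 157 FPKM and 6 loci at 100 FPKM or more. Together they held 1.37% of the summed FPKM of the WT libraries. After LOC_Os07g25050 and THION3 came THION6 (LOC_Os06g32020) at 384 and 458 FPKM, THION7 (LOC_Os06g32160) at 273 and 294 FPKM, and THION9 (LOC_Os06g32240) at 252 and 239 FPKM. The 4 loci from THION3 to THION9 lie on chromosome 6. The lowest of the list was a xylanase inhibitor (LOC_Os01g71070), which blocks fungal wall-degrading enzymes, at 1.27 and 1.66 FPKM.

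Transcription factors were low by comparison, as 30 loci had a median of 5.63 FPKM and 2 reached 100 FPKM. The highest was *OsMYB48* (LOC_Os01g74410), which the study describes as a positive regulator of secondary walls, at 196 and 245 FPKM. These values differed by 1.25-fold, beyond the 1.12-fold that bounds 95% of loci at this level. An AP2 domain protein (LOC_Os03g08500) was at 111 and 114 FPKM. *OsMYB31* (LOC_Os09g36730), described as a negative regulator, was at 51.7 and 50.1 FPKM, below *OsMYB48* by 3.80-fold and 4.89-fold.

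*OsMYB305* (LOC_Os01g45090) itself was at 150 and 148 FPKM in OE15, at 81.3 and 80.2 FPKM in OE20, and at 0.0388 and 0.0576 FPKM in the WT, where it was the lowest of the 30 transcription factors. It ranked in place 26985 by WT mean. The groups did not overlap, and the levels follow the labels. The OE levels include the transgene, and the fragments behind the WT values are too few for more than the order of magnitude.

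Of 11 loci annotated as transposon or retrotransposon proteins, 8 were at 1 FPKM or more, while 92.5% of all annotated loci were. All 11 were listed by the study as changed, so the count does not describe mobile elements of the root in general. The highest was a retrotransposon protein (LOC_Os10g31730) at 47.2 and 48.8 FPKM, and the lowest was a Pong-class transposon protein (LOC_Os11g17954) at 0.162 and 0.0683 FPKM.

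Within each of 20 families of annotated copies, the copy with the highest WT mean was also the highest in each WT library. In 13 families its lead over the next copy was larger than the replicate error in both libraries, and in 10 families it held more than 50% of the family's summed FPKM. Over all 20 families, 40 of 87 steps between neighbouring copies (46.0%) passed the replicate error.

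The plastocyanin-like genes were the most uneven family. LOC_Os11g24140 held 99.4% of the sum of 4 copies in each WT library, and it exceeded the next copy, LOC_Os04g46130 at 8.29 and 8.02 FPKM, by 269-fold and 282-fold. The lowest copy was LOC_Os07g38290 at 2.57 and 1.89 FPKM. Among 3 SCP-like extracellular proteins, LOC_Os10g11500 held 90.2% and 89.99%, and the lowest, LOC_Os07g14030, was at 8.02 and 8.70 FPKM.

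Among 6 thionins, LOC_Os07g25050 held 76.6% and 77.1% of the sum, and the lowest, THION34 (LOC_Os12g26960), was at 49.9 and 59.3 FPKM. Even for this copy, only 11.5% of the loci at 1 FPKM or more were higher. The 6 MYB genes, *OsMYB305* not included, had *OsMYB48* at 65.2% and 69.7% of their sum, and the lowest, LOC_Os01g19330, was at 0.306 and 0.708 FPKM.

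The 5 glycine-rich cell wall structural proteins all lie between LOC_Os10g31510 and LOC_Os10g31710 on chromosome 10. LOC_Os10g31710 was at 151 and 131 FPKM and held 61.0% and 57.2% of their sum. It exceeded LOC_Os10g31540, at 34.4 and 34.1 FPKM, by 4.38-fold and 3.84-fold, and LOC_Os10g31690 was lowest, at 12.6 and 13.9 FPKM. Of the 5 annotated copies, LOC_Os10g31710 led in both WT libraries and in the 4 OE libraries. Within the same stretch, the 3 unannotated loci from LOC_Os10g31660 to LOC_Os10g31680 each had a WT mean of 100 FPKM or more. The highest of these had a WT mean of 548 FPKM, above LOC_Os10g31710.

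Other families with 1 leading copy were the jacalin-like lectins, which bind sugars, the reticuline oxidase-like flavoproteins and the glutathione S-transferases, which conjugate glutathione to other compounds. LOC_Os06g07300 held 64.6% and 64.1% of 4 jacalin-like lectins, at 209 and 193 FPKM. LOC_Os06g35630 held 68.3% and 66.1% of 3 reticuline oxidase-like genes, at 71.9 and 74.5 FPKM. LOC_Os01g27210 held 57.3% and 56.8% of 6 glutathione S-transferases, at 171 and 172 FPKM, above LOC_Os09g20220 at 6.23 and 6.27 FPKM.

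In the cytochrome P450 family, of 20 annotated copies, LOC_Os01g58970 was at 31.0 and 30.3 FPKM and exceeded the next copy by 2.03-fold and 1.95-fold. It held 22.6% and 21.7% of the sum. Below it, 17 steps of the family did not pass the replicate error, and the lowest copy, LOC_Os06g39780, was at 0.241 and 0.630 FPKM. Among 6 cupin domain genes, of a class that includes germin-like proteins, LOC_Os08g08980 was at 42.9 and 40.0 FPKM and held 39.1% and 37.4%, and the lowest was LOC_Os12g05840 at 7.504 and 7.80 FPKM.

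Of 3 genes for 1-aminocyclopropane-1-carboxylate oxidase, which makes ethylene, LOC_Os05g05680 was at 16.5 and 17.5 FPKM and LOC_Os05g05670, its neighbour on chromosome 5, was lowest at 7.64 and 8.62 FPKM. Of 5 GDSL-like lipases, LOC_Os02g50000 was at 18.2 and 18.1 FPKM and LOC_Os09g07290 at 0.278 and 0.438 FPKM. In both families the lead of the top copy passed the replicate error.

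In 7 families no copy could be called dominant. Besides the cellulose synthases, the NRT2 genes and the laccases, these were the peroxidases, lipid transfer protein-like genes, MATE efflux genes and heavy metal-associated genes. LOC_Os05g04500 exceeded LOC_Os05g06970 among 8 peroxidases by 1.04-fold and 1.07-fold. LTPL129 (LOC_Os06g43600), at 109 and 99.4 FPKM, exceeded LTPL116 by 1.28-fold and 1.101-fold, and LTPL160 (LOC_Os10g36170) was lowest at 1.84 and 3.25 FPKM. Among MATE genes, whose proteins export organic compounds, LOC_Os04g30490 exceeded the next copy by 1.06-fold and 1.26-fold, and LOC_Os10g20350 was lowest at 1.31 and 1.74 FPKM. The heavy metal-associated genes had LOC_Os01g41200 highest at 13.4 and 12.9 FPKM and LOC_Os01g20830 lowest at 3.75 and 4.36 FPKM.

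**Figure D3:**
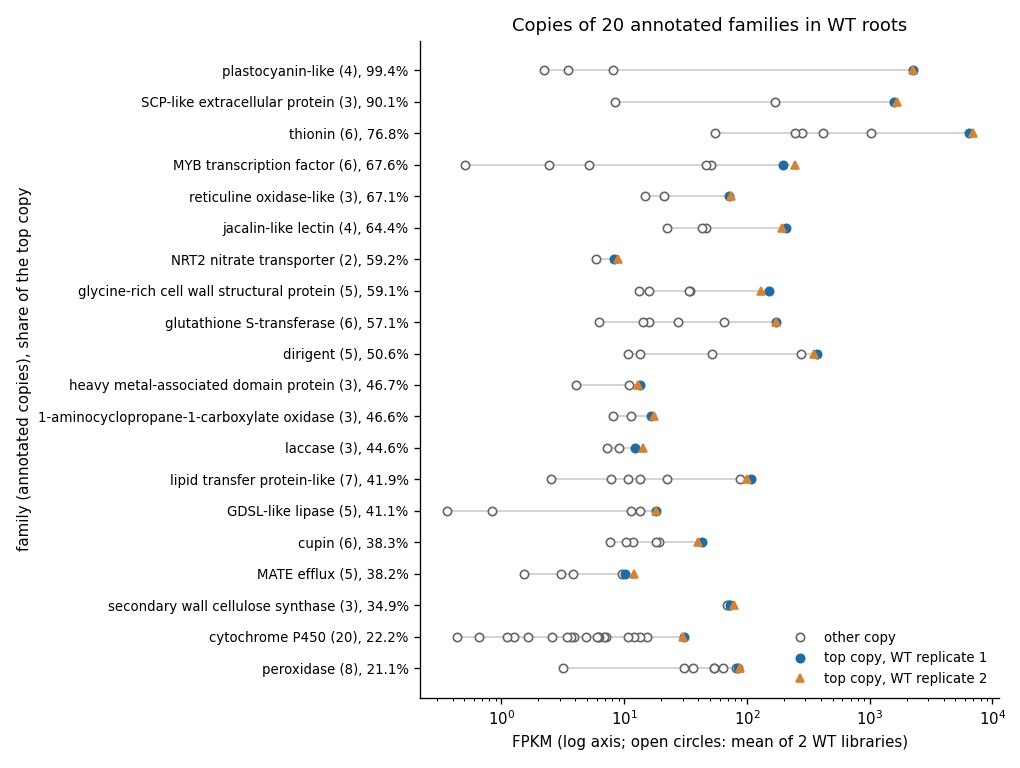
FPKM of the annotated copies of 20 families in WT roots (horizontal axis, log scale), ordered by the share of the top copy, with the number of copies and that share in the label. Filled points are the top copy in each WT library and open circles the WT mean of the other copies. The plastocyanin-like top copy holds 99.4% of its family, and the 3 cellulose synthases lie almost on one point.

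In 15 of the 20 families the 4 OE libraries had the same top copy as the WT. Most of the copies were listed by the study as changed in these lines, so a change of order is in part set by that choice and was not tested. In the dirigent family, LOC_Os10g18820 was at 66.1 to 79.0 FPKM in the 4 OE libraries, against 375 and 351 FPKM in the WT. LOC_Os10g18760 was at 109 to 207 FPKM in the OE libraries, against 286 and 271 FPKM in the WT, and was the top copy in each OE library. The fifth copy, LOC_Os12g26380, was lowest in the WT at 11.0 and 10.6 FPKM. The peroxidases and heavy metal-associated genes also had another top copy in all 4 OE libraries.

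The 2 WT libraries agreed closely. Across 20590 loci with a WT mean of 1 FPKM or more, Pearson's r of log2(FPKM + 0.1) was 0.986 and Spearman's rho was 0.993, given as a description because loci of 1 library are not independent. The libraries of OE15 gave a Pearson's r of 0.982 and those of OE20 0.985. Of the 20552 loci above 0 in both WT libraries, 67.2% were within 1.1-fold, 2.68% differed by more than 1.5-fold and 158 by more than 2-fold. The WT libraries shared all 10 of their 10 most expressed loci, 98 of 100 and 976 of 1000.

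The replicate error depended on the level. The fold that bounds 95% of loci was 3.71 at 0.1 to 1 FPKM, 1.503 at 1 to 10 FPKM, 1.17 at 10 to 100 FPKM, 1.12 at 100 to 1000 FPKM and 1.11 at 1000 FPKM or more. The libraries of OE15 had 3.82, 1.48, 1.15, 1.09 and 1.06 in the same bands, and those of OE20 had 3.81, 1.53, 1.16, 1.096 and 1.13. The median of log2 (replicate 2 over replicate 1) in the WT was 0.06 at 0.1 to 1 FPKM, 0.04 at 1 to 10 FPKM and 0.00 at 1000 FPKM or more.

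A few loci went against this agreement. In the WT, 69 loci were at 1 FPKM or more in 1 library and listed at 0 in the other, and 2 of these were at 10 FPKM or more. LOC_Os10g04800 had 89.0 FPKM in OE15 replicate 1 and was listed at 0 in OE15 replicate 2, and it had 153 and 96.5 FPKM in OE20, against 219 FPKM in WT replicate 1 and a listing at 0 in WT replicate 2. LOC_Os01g08300 had 51.8 and 123 FPKM in OE15 and was listed at 0 in both OE20 libraries, against 42.3 FPKM in WT replicate 1 and a listing at 0 in WT replicate 2. Neither locus could be given a WT level.

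Of the loci above 0 in both WT libraries, the largest ratios at a WT mean of 10 FPKM or more were those of LOC_Os04g56610 (5.07 and 20.6 FPKM), LOC_Os12g41634 (6.27 and 15.998 FPKM) and LOC_Os12g38650 (134 and 319 FPKM). None of these is annotated. Among annotated loci at 10 FPKM or more, the largest ratio was 1.35-fold, in the heavy metal-associated gene LOC_Os03g05750 at 9.30 and 12.6 FPKM.

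**Figure D4:**
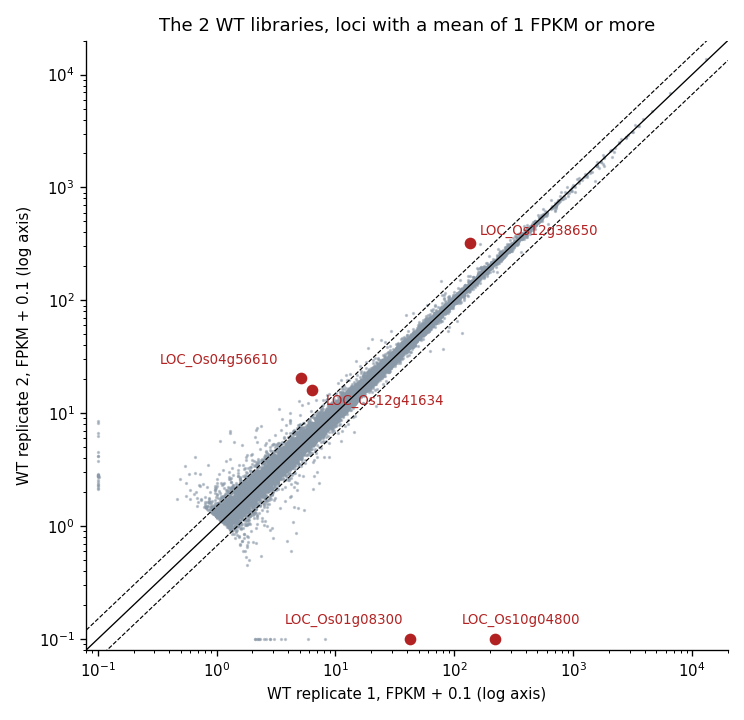
FPKM + 0.1 in WT replicate 2 against WT replicate 1 (both axes log scale) for 20590 loci with a WT mean of 1 FPKM or more, with the line of equal values and broken lines at 1.5-fold. Most loci lie between the broken lines. The 5 named loci are those with the largest ratios at 10 FPKM or more, of which LOC_Os10g04800 and LOC_Os01g08300 lie on the lower edge because they were listed at 0 in WT replicate 2.

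The libraries are roots by their labels, and among the markers of cell types both xylem genes and green tissue genes were detected. No shoot library is in the series, so the markers cannot place the tissue. The xylem cysteine proteinase 2 gene (LOC_Os02g48450) was at 14.7 and 12.5 FPKM in the WT, beside the cellulose synthases above. Of the 4 green tissue genes, the small chain of ribulose bisphosphate carboxylase (LOC_Os02g05830) was highest, at 51.6 and 50.2 FPKM in the WT, and PsbP (LOC_Os10g32400) lowest, at 3.75 and 5.30 FPKM. No marker of the 4 was at 0. Their sum was 59.8 to 63.4 FPKM in the OE libraries, against 86.2 and 86.8 FPKM in the WT, although PsbP alone was higher, at 6.81 to 8.60 FPKM in the OE libraries. The 4 xylem markers summed to 125 to 147 FPKM in the OE libraries, against 223 and 235 FPKM in the WT. The 2 markers of nitrate uptake, *OsNRT2.1* and *OsNAR2.1*, summed to 132 to 136 FPKM in the OE libraries, against 92.0 and 97.5 FPKM in the WT. An oleosin of seed oil bodies (LOC_Os06g27910) was at 9.44 to 13.4 FPKM in the OE libraries, against 7.06 and 6.16 FPKM in the WT. For none of these sums did the OE and WT libraries overlap. All 4 green tissue genes, the 4 xylem markers, the oleosin and *OsNAR2.1* are among the loci that the study listed as changed on these same libraries. The lack of overlap is thus largely set by that choice and is no independent evidence. In whole roots, fewer cells of a type and less RNA per cell cannot be told apart.

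To see how far the loci that dominate the WT root kept their level in the OE lines, each line was compared with the WT by limma on log2(FPKM + 0.1) in 20627 loci, where a call needed an adjusted p (Benjamini-Hochberg) under 0.05 and a change above 1.5-fold. In OE15, 7 of the 100 most expressed WT loci were called, 4 higher and 3 lower, while 5.5% of all loci tested were called (2.9% higher and 2.59% lower). In OE20, 3 were called, 2 higher and 1 lower, while 3.11% of all loci tested were called (1.46% higher and 1.64% lower). Both counts are near the share over all loci, but that share varied with the WT mean. It was 6.67% for OE15 and 3.68% for OE20 at 1 to 10 FPKM. The share was 3.55% and 1.61% at 100 to 1000 FPKM, and 11.3% and 5.66% for the 53 loci at 1000 FPKM or more. At any fold, 56 of the 100 had an adjusted p (limma) under 0.05 for OE15, and 48 for OE20. Most of these changed by less than 1.5-fold. The matching share over all loci is not given here. After quantile normalization the calls among the 100 were 2 higher and 4 lower in OE15, and 2 higher and 2 lower in OE20. The median log2 change of the 100 loci was -0.09 in OE15 and -0.04 in OE20, beside 0.02 and 0.02 over all loci tested.

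All 3 loci called in both lines changed in the same direction, and all 3 are among those that the study listed as changed, so the calls are no independent evidence. The plastocyanin-like LOC_Os11g24140 had 8628 and 8948 FPKM in OE15, with 8511 and 8460 FPKM in OE20, against 2234 and 2259 FPKM in the WT. Its log2 change was 1.97 (SE 0.03, limma adjusted p = 3.18e-07) in OE15 and 1.92 (SE 0.03, limma adjusted p = 4.45e-07) in OE20. It was the third most expressed locus in each of the 4 OE libraries and in place 17 in each WT library.

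The SCP-like LOC_Os10g11500 had 4394 and 4330 FPKM in OE15, with 3804 and 3600.0 FPKM in OE20, against 1591 and 1669 FPKM in the WT. Its log2 change was 1.42 (SE 0.04, limma adjusted p = 4.60e-06) in OE15 and 1.18 (SE 0.04, limma adjusted p = 1.77e-05) in OE20. The receptor-like kinase LOC_Os04g56430 had 791 and 775 FPKM in OE15, with 782 and 766 FPKM in OE20, against 1262 and 1310 FPKM in the WT. It was lower in all 4 OE libraries than in both WT libraries, with log2 changes of -0.72 (limma adjusted p = 3.05e-05) and -0.73 (limma adjusted p = 6.38e-05). The marker sums of xylem and green tissue differed between the OE and WT libraries as given above, and their part in these changes was not tested.

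Called in OE15 alone were LOC_Os07g25050 at 11107 and 10523 FPKM in OE15, against 6497 and 6919 FPKM in the WT, and LOC_Os09g24370 at 4174 and 4077 FPKM in OE15, against 2518 and 2689 FPKM in the WT. Both lost the call after quantile normalization, which sets LOC_Os07g25050, in place 2 in every library, to 1 value. THION3 (LOC_Os06g31890) was at 571 and 587 FPKM in OE15, against 1027 and 1007 FPKM in the WT, and the Bet v I protein LOC_Os03g18850 was at 604 and 610 FPKM in OE15, against 950 and 961 FPKM in the WT. In OE20 these 4 loci changed in the same direction with an adjusted p (limma) under 0.05 but by less than 1.5-fold.

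**Figure D5:**
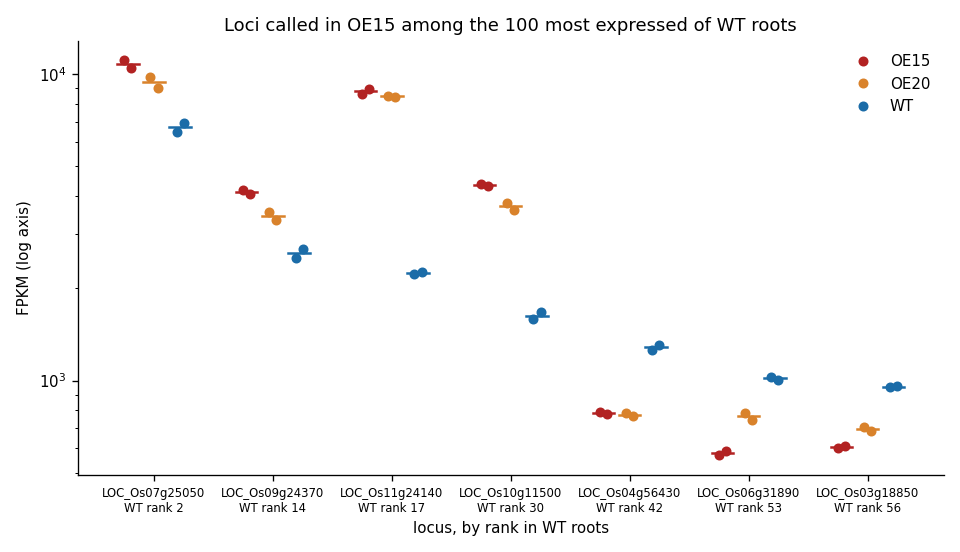
FPKM (log scale) of the 7 loci called in OE15 among the 100 most expressed of WT roots, with 2 libraries each of OE15, OE20 and WT as points and their mean as a bar. The OE libraries lie above the WT for the 4 loci on the left and below it for the 3 on the right, without overlap.

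The most expressed locus, LOC_Os01g15270, was at 14145 and 14041 FPKM in OE15, with 12423 and 12631 FPKM in OE20, against 13030 and 13872 FPKM in the WT, and was the highest in every library. Of the 10 most expressed WT loci, 6 were among the 10 most expressed of each OE library, and 90 to 93 of the 100 most expressed WT loci were among the 100 of an OE library. The 10 most expressed loci of a library held 7.73% to 8.58% of its summed FPKM in the OE lines, against 6.70% and 6.86% in the WT. This difference of 1.37 percentage points had p = 0.0667 in a two-sided exact permutation test of 4 against 2 libraries, the smallest p that 15 arrangements allow, and so could not pass 0.05. Loci at 1000 FPKM or more numbered 49 to 52 in the OE libraries, against 54 and 55 in the WT, with the same p in the exact test. Of 10 such measures compared, 3 reached this p, and all 3 had a Benjamini-Hochberg adjusted p of 0.222 (exact test).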

How the data were processed

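The authors deposited FPKM per locus and library. The submitters' processing notes name FastQC 0.11.8, Trimmomatic 0.38, HISAT2 2.1.0 and Cufflinks 2.2.1, which check, trim, map and quantify reads. Genome build, annotation release, strand setting and treatment of multi-mapped reads are not given in the sources used here. Of 55991 rows, 4 names listed more than once were left out. The RefSeq gene table could not pair MSU names with symbols.

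The members and lists were chosen with earlier results of these data known. Named loci are the study's wall and N genes, the top 10 WT loci, the highest and lowest of each list or family, up to 6 for N, transport and wall lists, and the 5 most discordant loci. Other loci, such as further thionins, next copies and the calls among the top 100, were named after their values were seen. A step in level counted when both WT libraries gave 1 direction and it passed the 95th percentile of the ratio between them at that level.

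OE lines were compared with the WT by limma 3.58.1 (R 4.3.3), which fitted 3 genotypes at once (3 residual degrees of freedom) to log2(FPKM + 0.1) with empirical Bayes and trend. Loci whose mean over 6 libraries was below 1 FPKM were not fitted. The fit was tested on simulated data. Fold changes on this scale understate those of low loci. Python 3.11.15 was used otherwise, and the alternatives tried are in the closing section.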

Additional observations from a re-analysis of the deposited data

Results flagged for a closer look

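Whether the change in OE15 differed from that in OE20 was read from limma's test of the difference (OE15 minus OE20, log2 scale, Benjamini-Hochberg adjusted p under 0.05). Of 200 tested loci that are in the lists and families, among the 20 most expressed WT loci or called among the 100, 54 differed between the lines, 7 of them by more than 1.5-fold. Most of these loci were listed by the study as changed in the lines. The share over all loci tested is not given here, so the counts in this paragraph are descriptions only. Of the loci whose OE levels are given singly above, *OsMYB305* (LOC_Os01g45090) differed by 0.89 (adjusted p = 0.000886), with 9.98 for OE15 and 9.09 for OE20. The dirigent gene LOC_Os10g18760 differed by 0.87 (adjusted p = 0.000108), with -0.45 for OE15 and -1.32 for OE20. Of 16 loci that are the 10 most expressed of the WT or were called among the 100, 7 differed, each by less than 1.5-fold. They included THION3 (LOC_Os06g31890) at -0.40 (adjusted p = 0.00111), with -0.81 for OE15 and -0.42 for OE20, and LOC_Os02g41630 at 0.40 (adjusted p = 0.00094), with -0.02 for OE15 and -0.41 for OE20. The others were 0.26 for LOC_Os09g24370 (adjusted p = 0.0142), 0.24 for the SCP-like LOC_Os10g11500 (adjusted p = 0.0136), -0.19 for the Bet v I protein LOC_Os03g18850 (adjusted p = 0.0098), -0.18 for LOC_Os02g38920 (adjusted p = 0.0211) and 0.17 for LOC_Os01g15270 (adjusted p = 0.0443). For each of the 9 loci named here the 2 libraries of OE15 and the 2 of OE20 did not overlap. The loci were chosen by the test on these same libraries, so this is no further evidence.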

How the results depend on the processing

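Pearson's r of the WT libraries was 0.994 with a pseudocount of 1, 0.975 with 0.01, 0.989 with no minimum and 0.993 with a minimum WT mean of 5 FPKM. Without the 10 most expressed loci, the next 100 held 16.04% of the summed FPKM. Taking the 500 most expressed WT loci gave 23 calls (4.6%) for OE15 and 8 (1.6%) for OE20, beside 5.5% and 3.11% of all loci tested. With each library left out in turn, the calls among the 100 loci ranged from 7 to 8 in OE15 and stayed at 3 in OE20, and the families with a dominant copy ranged from 13 to 15. The eighth call in OE15, without WT replicate 2, was LOC_Os05g28750. Under quantile normalization LOC_Os03g12510 gained a call in both lines, at -1.05 in OE15 and -0.88 in OE20, while LOC_Os07g25050 was at 0 and LOC_Os09g24370 at 0.52 in OE15. Deviations of same-numbered libraries correlated by only -0.07 to 0.03 between genotypes, so no effect shared by replicate number was seen across loci. Whether same-numbered libraries were grown or prepared together is not stated, and these correlations cannot tell. With the replicate block the calls were 7 in OE15 and 3 in OE20, as without it. Of 60 alternative values for the shares of top copies, 60 moved by no more than the SD of the 2 WT libraries, as did 76 of 84 for ranks. Most of these alternatives left out 1 WT library, which moves a mean of 2 by less than their SD. They could therefore hardly fail, and these counts are no evidence of stability. The depth is unknown, so no counting error can be given, and with 2 WT libraries the yardstick of replicate error comes from 1 pair. Levels below 1 FPKM are order-of-magnitude values.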
